A study of Mus musculus with 8 samples.

Results

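The circadian clock genes described here are the 10 genes Arntl, Clock, Per1, Per2, Per3, Cry1, Cry2, Nr1d1, Nr1d2 and Dbp, which form the core feedback loops of the molecular clock and a direct output of it. They were found by the RefSeq accession that the array files give for each probe, which yielded 11 probes, 2 of them for Dbp, among the 20660 genes named in this way. The 8 arrays (Agilent SurePrint G3, 2 colours) measured transcripts of gastrocnemius and tibialis anterior (TA) muscle, with 4 arrays to a muscle. Each array carried RNA of 1 Eif6+/- mouse, labelled with Cy5, beside RNA of 1 WT mouse, labelled with Cy3. The Eif6+/- mice carried 1 inactivated and 1 intact allele of Eif6, which encodes an initiation factor that keeps the large ribosomal subunit from joining the small one. All mice were male C57BL6 littermates aged 8 to 16 weeks with free access to food, and each Eif6+/- mouse was paired at random with a WT mouse of like age. The arrays of each muscle are numbered as pairs 1 to 4, and whether the same number stands for the same mice in both muscles is not given in the sources used here, nor is the hour at which the muscles were taken. Since the Eif6+/- RNA carried Cy5 on all 8 arrays, dye and genotype cannot be told apart in the mean ratio of a probe, whereas a constant dye bias cancels in differences between pairs or between muscles.

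In the clock of most mammalian cells, the proteins of Arntl (BMAL1) and Clock join and switch on genes that carry E-box sequences, among them the Per and Cry genes, whose proteins then return to the nucleus and silence the BMAL1-CLOCK pair. Nr1d1 and Nr1d2 encode the receptors REV-ERB alpha and beta, which are switched on through E-boxes as well and repress Arntl, while Dbp encodes a transcription factor that passes the rhythm on to genes with D-box sequences. Skeletal muscle runs this clock itself, the levels of most of these transcripts follow the time of day, and Per1 also responds quickly to stress hormones and to other acute signals.

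Eif6, the targeted gene, had less transcript in Eif6+/- than in WT muscle on all 8 arrays. Its log2 ratio of Eif6+/- over WT was -0.97, -1.15, -0.89 and -1.06 on gastrocnemius arrays 1 to 4 and -1.22, -1.03, -0.95 and -0.80 on TA arrays 1 to 4. The mean was -1.02 ± 0.11 in gastrocnemius (SD, n = 4; adjusted p = 0.0241) and -0.999 ± 0.17 in TA (adjusted p = 0.0109), or 0.494 and 0.50026 of the WT level. Whether the probe reads the part of Eif6 that was inactivated is not given in the sources used here. Muscle fibre genes were well above background in all 16 channels for 7 of 7 markers, with Pvalb the brightest, and of 4 liver and kidney markers Alb, Apoa1 and Ttr were well above background in none.

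Certain arrays stood apart in the tissue they held. On gastrocnemius array 1 the summed normalized intensity of 7 slow fibre genes, brightest for Myl3, was 135547 in the Eif6+/- mouse and 14500 in the WT mouse, a ratio of 9.35, whereas the ratio was 0.469, 1.14 and 0.881 on gastrocnemius arrays 2 to 4 and 1.01, 0.696, 0.962 and 0.367 on TA arrays 1 to 4. On TA array 3 the sum of 6 connective tissue genes, brightest for Col1a2, was 173535 in the Eif6+/- mouse and 39608 in the WT mouse, a ratio of 4.38, against 1.198, 0.565 and 0.871 on TA arrays 1, 2 and 4 and 1.01, 1.04, 0.391 and 1.25 on gastrocnemius arrays 1 to 4. Without gastrocnemius array 1 the clock genes called in gastrocnemius stayed at 3 and all genes called went from 1939 to 1766. Without TA array 3 the clock genes called in TA stayed at 3 as well, and all genes called went from 2014 to 1185.

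Of the 10 clock genes, 9 were tested in each muscle, and Cry1 was not, being well above background in only 2 of 16 channels. Per1 and Cry2 were higher and Nr1d1 was lower in Eif6+/- muscle, and these same 3 genes passed an adjusted p of 0.1 in gastrocnemius and in TA. In gastrocnemius 3 of 9 clock genes (33.3%) were called, where 15.4% of the 12609 genes tested were; 2 of the 9 were called higher, against 9.85% of all genes, and 1 lower, against 5.53%. In TA 3 of 9 were called where 16.3% of the 12381 genes tested were, with 2 higher, against 8.98%, and 1 lower, against 7.29%. At an unadjusted p under 0.05 the counts were 4 of 9 in gastrocnemius, against 29% of all genes tested, and 5 of 9 in TA, against 29.1%. The median log2 ratio of the 9 clock genes was 0.14 in gastrocnemius and 0.15 in TA, while that of all genes tested was 0.020 and 0.019. All 3 genes lost their calls in both muscles when the signals processed by Agilent's software were used (adjusted p from 0.108 to 0.127) and by an unpaired test of the levels without limma's moderation (0.120 to 0.221). By SAM, the test that the methods name for arrays, all 3 passed (0.0259 to 0.0321 in gastrocnemius and 0.0406 to 0.0441 in TA), and Per2 did as well. SAM rested here on the 16 possible sign changes of 4 arrays, and in gastrocnemius it also called more of all genes than limma did. With an offset of 0 in the background correction Cry2 (0.102 in both muscles) and Per1 in TA (0.121) did not pass. The muscles are bulk tissue, in which fewer cells of a type and less RNA per cell cannot be told apart.

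**Figure D1:**
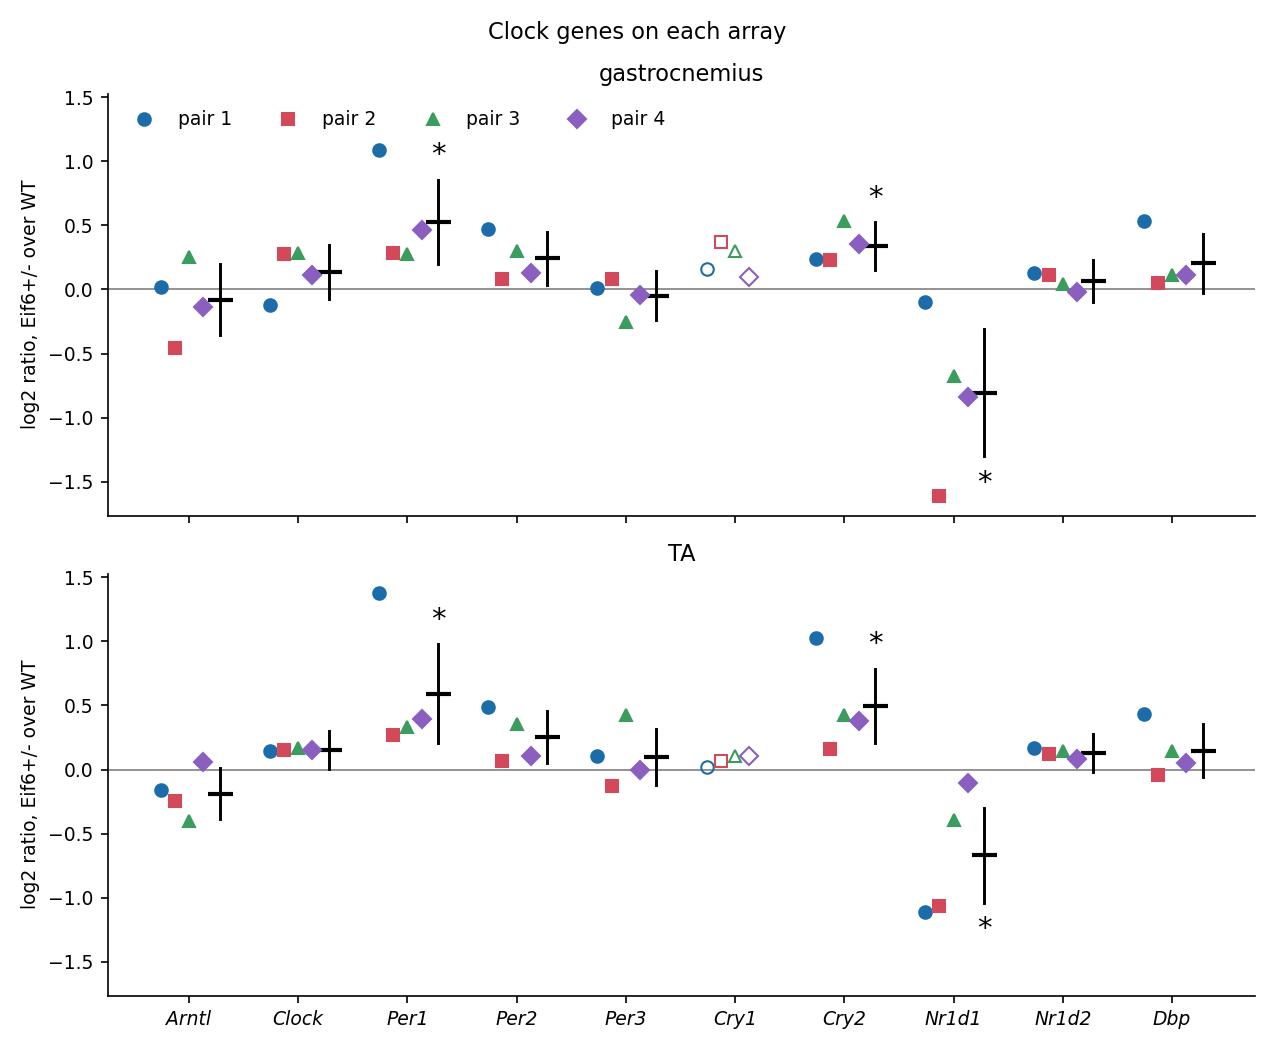
Log2 ratio of Eif6+/- over WT (y axis) for the 10 clock genes (x axis) on the 4 arrays of gastrocnemius (top) and TA (bottom). Each marker is a pair, black lines are the mean with its 95% confidence interval from limma, an asterisk marks an adjusted p under 0.1, and open markers show Cry1, which was not tested. Per1 and Cry2 lie above 0 and Nr1d1 below 0 on every array, and pair 1 gives the highest Per1 value in both muscles, 1.09 and 1.38.

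The promoters of the 3 genes that passed the test in both muscles, 2 of them higher and 1 lower, are shown. Whether their motifs bear on the direction was not tested. Sequences are from RefSeq (GRCm38.p6), read along the strand of the gene, and capitals mark matches to the motifs searched on both strands: the E-box CACGTG, its variant CACGTT, which reads AACGTG on the other strand, the nuclear receptor half-site AGGTCA, which reads TGACCT there, and the D-boxes TTATGTAA and TTACGTAA. The windows lie around the annotated transcript starts at chr11:69098699-69098998 on the + strand for Per1, chr2:92434020-92434319 on the - strand for Cry2 and chr11:98775328-98775627 on the - strand for Nr1d1.
Per1: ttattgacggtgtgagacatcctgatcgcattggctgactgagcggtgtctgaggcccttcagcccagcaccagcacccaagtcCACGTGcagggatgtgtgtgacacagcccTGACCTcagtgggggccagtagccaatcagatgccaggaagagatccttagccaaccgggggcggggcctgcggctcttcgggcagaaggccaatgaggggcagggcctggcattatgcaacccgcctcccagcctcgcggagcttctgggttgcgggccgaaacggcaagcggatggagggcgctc
Cry2: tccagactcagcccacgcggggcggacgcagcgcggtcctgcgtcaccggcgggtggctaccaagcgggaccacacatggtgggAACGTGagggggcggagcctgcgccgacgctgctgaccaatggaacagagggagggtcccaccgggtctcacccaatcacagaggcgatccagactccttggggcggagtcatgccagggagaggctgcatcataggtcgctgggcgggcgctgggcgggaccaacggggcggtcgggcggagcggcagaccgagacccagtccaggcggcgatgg
Nr1d1: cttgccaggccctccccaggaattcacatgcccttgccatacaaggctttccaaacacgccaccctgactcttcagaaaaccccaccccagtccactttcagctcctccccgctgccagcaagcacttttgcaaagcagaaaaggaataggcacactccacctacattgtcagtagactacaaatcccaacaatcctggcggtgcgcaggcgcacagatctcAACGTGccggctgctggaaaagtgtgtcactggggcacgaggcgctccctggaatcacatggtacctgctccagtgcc
The Per1 window shown, 1 of 2 for this gene, holds an E-box at position -166 from the annotated start and a half-site on the other strand at -137, and the second Per1 window, at chr11:69099902-69100201, holds no match. In the Cry2 and Nr1d1 windows the only match is the E-box variant on the other strand, at -166 and -28.

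Promoter windows were found for 9 of the 10 clock genes, 13 windows in all, and Per2 is named only. The E-box stood in windows of 2 members, Per1 and Cry1, and in 7.15% of the 32851 windows of all genes. The variant was found for Cry1, Cry2 and Nr1d1 (4.68% of all windows), the half-site for Arntl, Clock, Per1 and Nr1d2 (16.3%), and the D-box TTATGTAA at 2 positions, -205 and -158, for Per3 (0.938%). TTACGTAA, which 0.119% of all windows hold, was in none of the 13, and no match overlapped another. Of the 13 windows 8 held at least 1 of these motifs, against 26.8% of all windows, and the Dbp window held none. A match is a string of letters and not evidence of binding.

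Neither activator gene passed the test as reported, and each passed in TA under at least 1 alternative. For Arntl the log2 ratio lay between -0.46 and 0.26 on the gastrocnemius arrays, 2 of them above 0, and between -0.40 and 0.06 in TA, 1 of them above 0. The means were -0.08 ± 0.30 in gastrocnemius (SD, n = 4; adjusted p = 0.706) and -0.19 ± 0.19 in TA (adjusted p = 0.198), and without pair 2 the gastrocnemius mean turned to 0.05. Without pair 4 Arntl in TA passed at -0.27 (adjusted p = 0.0981), in a range from 0.0981 to 0.484 over the 16 alternatives. Clock gave 0.14 ± 0.19 in gastrocnemius (adjusted p = 0.378), where array 1 was at -0.12 and the others between 0.11 and 0.28, and without pair 1 it was 0.22 (adjusted p = 0.183, in a range from 0.183 to 0.704 over the 16 alternatives). In TA, Clock gave the most even ratios of any clock gene tested, between 0.15 and 0.17 on all 4 arrays, with a mean of 0.15 ± 0.011 (adjusted p = 0.169). It passed there with loess alone (0.20, adjusted p = 0.0980) and by the unpaired test without moderation (0.0743), in a range from 0.0743 to 0.353 over the 16 alternatives.

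Among the repressors, Per1 was 1.44-fold higher in Eif6+/- gastrocnemius and 1.51-fold higher in Eif6+/- TA. In gastrocnemius its normalized log2 level was 10.21, 10.76, 10.54 and 10.91 in the WT mice of pairs 1 to 4 and 11.30, 11.04, 10.81 and 11.37 in the Eif6+/- mice. In TA it was 10.27, 10.83, 10.74 and 11.16 in the WT mice and 11.65, 11.10, 11.06 and 11.55 in the Eif6+/- mice. Within each pair the Eif6+/- mouse had the higher level, yet the genotypes overlapped in both muscles, because the WT mouse of pair 4 lay above the lowest Eif6+/- mice. Pair 1 stood out in both muscles, with the lowest WT level and a log2 ratio of 1.09 in gastrocnemius and 1.38 in TA, whereas the other 6 arrays lay between 0.27 and 0.46. The mean log2 ratio was 0.53 ± 0.39 in gastrocnemius (SD, n = 4; SE 0.14; 95% confidence interval 0.20 to 0.86; adjusted p = 0.0710) and 0.59 ± 0.53 in TA (SE 0.17; 0.21 to 0.98; adjusted p = 0.0714). Per1 lost its call in gastrocnemius without pair 3 (log2 ratio 0.61, adjusted p = 0.167) or pair 4 (0.55, 0.201), where 0 of all genes were called by limma (2424 and 2649 at an unadjusted p under 0.05), and in TA without pair 1 (log2 ratio 0.33, adjusted p = 0.161) or pair 2 (0.70, 0.112). In gastrocnemius the ratio was 0.34 without pair 1 (adjusted p = 0.0799), and over the 16 alternatives its adjusted p ran from 0.0321 to 0.201 in gastrocnemius and from 0.0441 to 0.221 in TA.

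Per2, whose protein partners that of Per1 in the repressor complex, had a log2 ratio above 0 on all 8 arrays but did not pass the test. The ratios were 0.47, 0.08, 0.30 and 0.13 on gastrocnemius arrays 1 to 4 and 0.49, 0.07, 0.36 and 0.11 on TA arrays 1 to 4, so that the pairs stood in the same order in both muscles. The mean was 0.24 ± 0.18 in gastrocnemius (SD, n = 4; adjusted p = 0.137) and 0.26 ± 0.20 in TA (adjusted p = 0.111). With the signals processed by Agilent's software the value was 0.61 in gastrocnemius (adjusted p = 0.120) and 0.77 in TA, where it passed the test (0.0860). Over the 16 alternatives the adjusted p of Per2 ran from 0.0894 to 0.380 in gastrocnemius, with 2 past the threshold (SAM and 1 fit over all 8 arrays), and from 0.0860 to 0.374 in TA, with 5 past it. Its spots read between 53 and 204 intensity units on the scanner.

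Per3, the remaining period gene, was well above background in 12 of 16 channels. Its ratios ran from -0.25 to 0.08 in gastrocnemius and from -0.13 to 0.42 in TA, with means of -0.05 ± 0.14 (adjusted p = 0.730) and 0.10 ± 0.24 (adjusted p = 0.530). Both means changed sign without pair 3, to 0.02 in gastrocnemius and -0.0081 in TA.

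Cry2, the cryptochrome that was measured well here, was 1.26-fold higher in Eif6+/- gastrocnemius and 1.41-fold higher in Eif6+/- TA. In gastrocnemius its log2 level was 11.28, 11.21, 10.88 and 11.18 in the WT mice of pairs 1 to 4 and 11.52, 11.44, 11.41 and 11.53 in the Eif6+/- mice. In TA it was 10.77, 11.29, 11.06 and 11.03 in the WT mice and 11.79, 11.45, 11.49 and 11.41 in the Eif6+/- mice. All Eif6+/- mice lay above all WT mice in both muscles. Such a separation with the Eif6+/- level higher was seen for 1 of 9 clock genes in gastrocnemius, against 11.5% of all genes tested, and for 4 of 9 in TA (Clock, Per2, Cry2 and Nr1d2), against 10.1%. The mean log2 ratio of Cry2 was 0.34 ± 0.14 in gastrocnemius (SD, n = 4; SE 0.081; 95% confidence interval 0.15 to 0.53; adjusted p = 0.0582) and 0.50 ± 0.37 in TA (SE 0.13; 0.21 to 0.79; adjusted p = 0.0554). The call was lost in gastrocnemius without pair 3 (log2 ratio 0.27, adjusted p = 0.197) or pair 4 (0.33, 0.198), where no gene of the array was called, and in TA without pair 1, whose ratio of 1.02 was the highest, leaving a mean of 0.32 (adjusted p = 0.187). Over the 16 alternatives the adjusted p of Cry2 ran from 0.0273 to 0.198 in gastrocnemius and from 0.0405 to 0.187 in TA. Cry1, not well above background in any WT channel, is given no fold change.

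Nr1d1 went the other way, at 0.572 of the WT level in Eif6+/- gastrocnemius and 0.629 of it in Eif6+/- TA, the largest differences among the clock genes tested. In gastrocnemius its log2 level was 10.15, 11.49, 10.67 and 10.94 in the WT mice of pairs 1 to 4 and 10.05, 9.87, 9.99 and 10.10 in the Eif6+/- mice. In TA it was 11.06, 10.60, 10.07 and 10.03 in the WT mice and 9.94, 9.53, 9.68 and 9.93 in the Eif6+/- mice. All Eif6+/- mice lay below all WT mice in both muscles, as they did for 6.41% of all genes tested in gastrocnemius and 7.31% in TA, and no other clock gene did so. The WT mice spread widely, with an SD of 0.56 in gastrocnemius and 0.49 in TA, and the Eif6+/- mice little, with an SD of 0.098 and 0.20. The log2 ratio therefore ran from -1.62 on array 2 to -0.09 on array 1 in gastrocnemius and from -1.12 on array 1 to -0.10 on array 4 in TA. Its mean was -0.81 ± 0.63 in gastrocnemius (SD, n = 4; SE 0.21; 95% confidence interval -1.30 to -0.31; adjusted p = 0.0693) and -0.67 ± 0.50 in TA (SE 0.16; -1.04 to -0.30; adjusted p = 0.0491). The call was lost in gastrocnemius without pair 3 (log2 ratio -0.85, adjusted p = 0.200) or pair 4 (-0.80, 0.211), where no gene of the array was called, and in TA without pair 1 (-0.52, 0.227) or pair 2 (-0.54, 0.148), while the gastrocnemius mean was -0.54 without pair 2 (adjusted p = 0.0980). Over the 16 alternatives the adjusted p of Nr1d1 ran from 0.0259 to 0.211 in gastrocnemius and from 0.0296 to 0.227 in TA.

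Nr1d2, the close relative of Nr1d1, did not follow it. Its ratios lay between -0.02 and 0.13 in gastrocnemius and between 0.09 and 0.17 in TA, with means of 0.07 ± 0.068 (SD, n = 4; adjusted p = 0.589) and 0.13 ± 0.036 (adjusted p = 0.238). The Nr1d2 levels of the genotypes overlapped in gastrocnemius and were separate in TA.

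**Figure D2:**
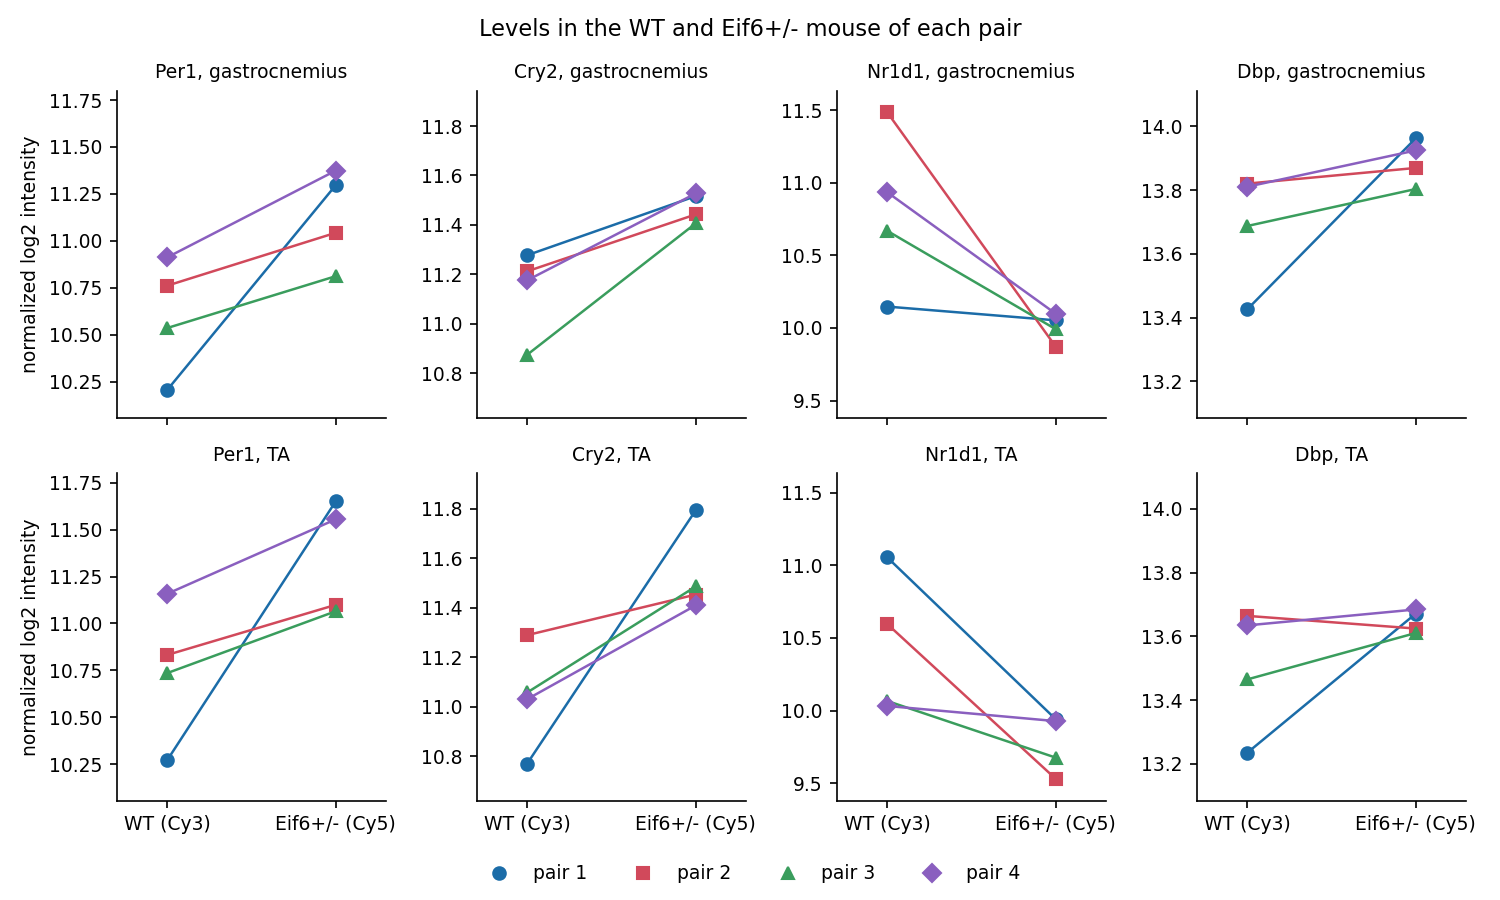
Normalized log2 level (y axis) of Per1, Cry2, Nr1d1 and Dbp in the WT and the Eif6+/- mouse (x axis) of each pair, joined by a line, in gastrocnemius (top) and TA (bottom). The Cry2 and Nr1d1 levels of the genotypes do not overlap in either muscle, those of Per1 and Dbp do, and the Nr1d1 levels spread more among WT mice (SD 0.56 and 0.49) than among Eif6+/- mice (0.098 and 0.20).

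The output gene Dbp did not pass the test, although its ratio was above 0 on 7 of 8 arrays. Its log2 level in gastrocnemius was 13.43, 13.82, 13.69 and 13.81 in the WT mice of pairs 1 to 4 and 13.96, 13.87, 13.80 and 13.92 in the Eif6+/- mice. In TA it was 13.23, 13.66, 13.47 and 13.63 in the WT mice and 13.67, 13.62, 13.61 and 13.68 in the Eif6+/- mice. The Eif6+/- mice were alike and the WT mouse of pair 1 was the lowest in both muscles, which put the ratio of pair 1 at 0.54 in gastrocnemius and 0.44 in TA. The mean was 0.20 ± 0.22 in gastrocnemius (SD, n = 4; adjusted p = 0.236) and 0.15 ± 0.21 in TA (adjusted p = 0.315), and without pair 1 it was 0.09 and 0.05. A second Dbp probe gave 0.01 in gastrocnemius and 0.02 in TA (adjusted p = 0.950 and 0.898), with pair 1 again highest, at 0.30 and 0.27.

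Gastrocnemius and TA were then compared with each other. With limma 0 of 9 clock genes were called for a difference in ratio between the muscles, and 0 had an unadjusted p under 0.05, which held under every alternative run. Among all 12200 genes tested 0 were called (0%), while 995 (8.16%) had an unadjusted p under 0.05. The differences, gastrocnemius minus TA, lay between -0.16 for Cry2 and 0.11 for Arntl, and the smallest adjusted p was 0.784, for Per3. The SE of these differences ran from 0.085 for Nr1d2 to 0.31 for Nr1d1, so that for Nr1d1 a sizeable difference between muscles could not have been seen. Muscle and slide row cannot be told apart on these arrays.

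Set side by side by pair number, the clock genes varied in how close the muscles were. Per2 differed by at most 0.057 between the muscles at any pair number, and the median difference was 0.022 for Per2, 0.059 for Per1, 0.071 for Nr1d2, 0.077 for Dbp and 0.084 for Cry2. The largest difference was 0.29 for Per1 and 0.78 for Cry2, both in pair 1. For Nr1d1 the median difference was 0.64 and the largest, in pair 1, was 1.02. Clock, Per2 and Dbp kept the same order of pairs in both muscles, 3 of the 9 clock genes tested, and both Dbp probes and Per2 shared the order 1, 3, 4, 2. Some of these orders rest on small gaps. Clock in TA ran only from 0.146 to 0.171, and Dbp in gastrocnemius was at 0.116 in pair 3 and 0.114 in pair 4. Pair 1 was the highest for 5 of 9 clock genes in gastrocnemius and for 5 of 9 in TA, and 5 of 9 had the same highest pair in both muscles. The shares of all genes with such orders were not computed. Over all genes, arrays of the same pair number correlated between -0.356 and 0.0896 in their deviations of the log2 ratio.

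**Figure D3:**
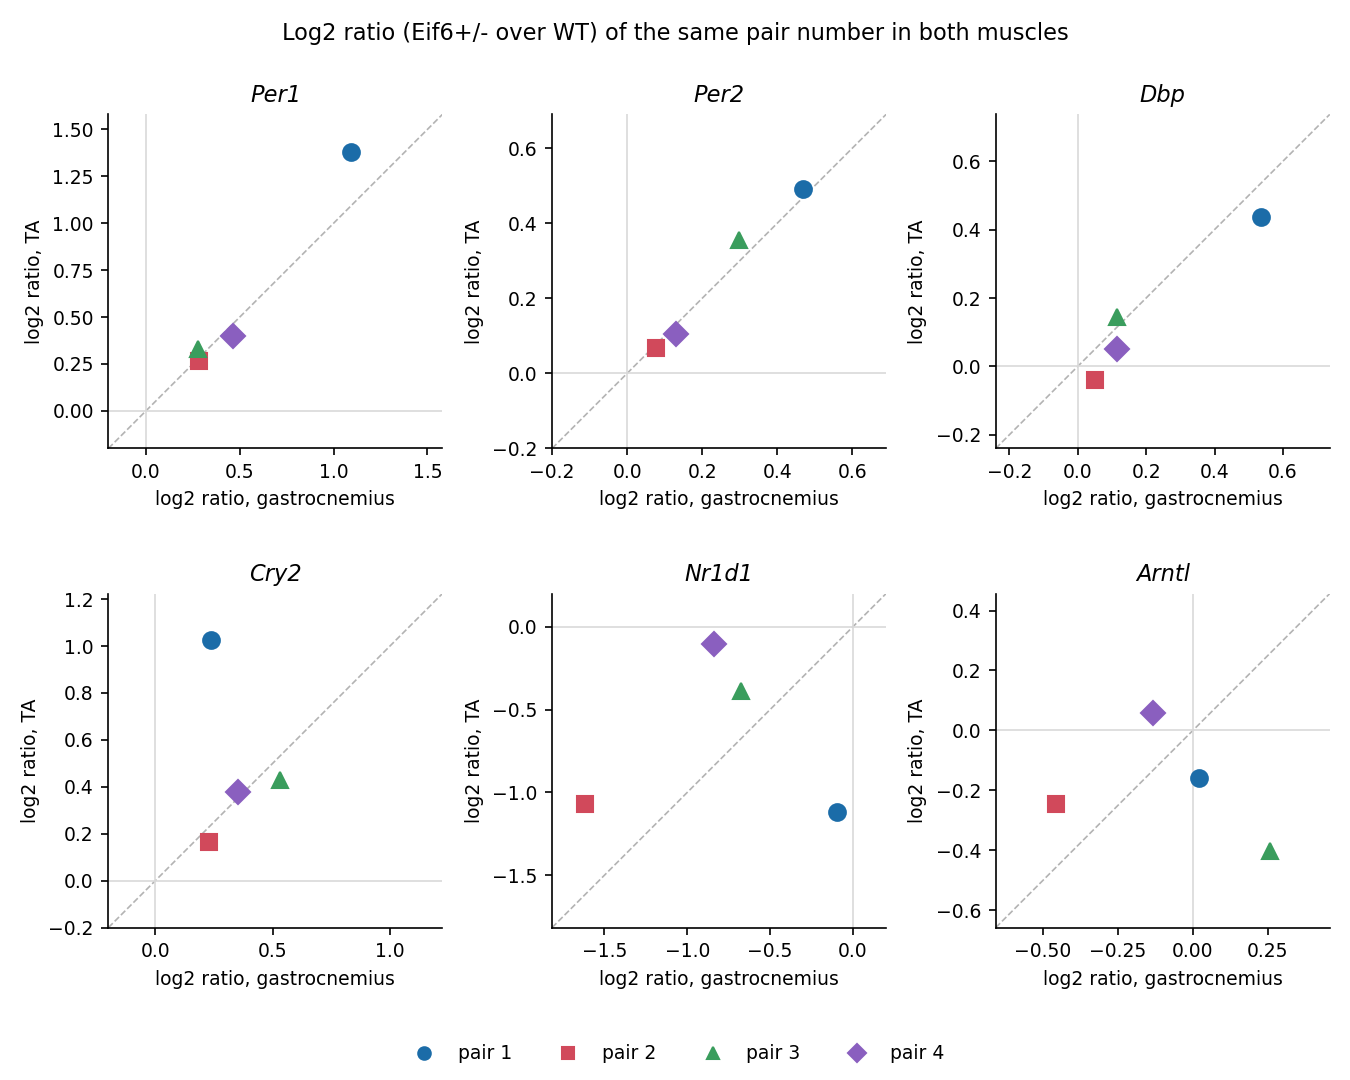
Log2 ratio of Eif6+/- over WT in gastrocnemius (x axis) and in TA (y axis) for 6 clock genes, with 1 marker for each pair number and a dashed line where both muscles are equal. The points of Per2 and Dbp lie near the line, as do those of Per1 except for pair 1 (1.09 and 1.38), and those of Nr1d1, Cry2 and Arntl include pairs far from it, such as Nr1d1 in pair 1 (-0.09 and -1.12).

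Differences in the ratio between pair numbers were tested over all 8 arrays. They were set against the spread within pair numbers that was left once the mean difference between muscles was removed. By limma's moderated F test 0 of 9 clock genes were called, with 2 (Per1 and Dbp) at an unadjusted p under 0.05. Of all 12200 genes 5 (0.041%) were called and 463 (3.8%) had an unadjusted p under 0.05. Per1 had the smallest adjusted p of the clock genes, 0.385, with 0.96 between its highest and lowest pair mean. The same test on the Eif6+/- levels called 0 of 9 clock genes, with 2 (Per1 and Nr1d1) at an unadjusted p under 0.05, where 16 of all genes (0.131%) were called and 1144 (9.38%) were under 0.05. On the WT levels it called 0 of 9, with 2 (Per1 and Dbp) at an unadjusted p under 0.05, where 10 of all genes (0.082%) were called and 534 (4.38%) were under 0.05. The smallest adjusted p was that of Per1 in each, 0.226 among Eif6+/- levels and 0.492 among WT levels. Without gastrocnemius array 1 and TA array 3, the arrays that stood apart, the test of the ratio called 2 clock genes, Per1 (adjusted p = 0.0528) and Nr1d1 (0.0269), and 574 of all genes, and the test of the WT levels called 2 clock genes and 1708 of all genes. By limma the test of the Eif6+/- levels called 0 clock genes there, with 1 at an unadjusted p under 0.05, and 3 of all genes. This choice was made after the data were seen, and since it leaves pair numbers 1 and 3 with 1 array each, the spread in these fits comes from pair numbers 2 and 4 alone and the counts carry little weight.

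Levels varied more among WT than among Eif6+/- mice for most clock genes, and for most other genes too. The SD was larger among the WT mice for 7 of 9 clock genes in gastrocnemius, as for 69.2% of all genes, and for 6 of 9 in TA, as for 59.7% of all genes. Genotype and dye cannot be told apart in this comparison either.

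Of 12 other factors of the clock loops 9 were tested in each muscle (Npas2, Arntl2 and Rorb were not). In gastrocnemius 6 of 9 were called, 4 higher and 2 lower, where 15.4% of all genes were, 9.85% higher and 5.53% lower. In TA 4 of 9 were called, 3 higher and 1 lower, where 16.3% of all genes were, 8.98% higher and 7.29% lower. Nfil3, a repressor that competes with Dbp for D-boxes, was higher in both muscles, at 0.54 ± 0.13 in gastrocnemius (SD, n = 4; adjusted p = 0.0287) and 0.53 ± 0.14 in TA (adjusted p = 0.0153), and above 0 on all 8 arrays. Tef, which binds the same sites as Dbp, was higher at 0.36 (adjusted p = 0.0684) and 0.43 (0.0244), and Ciart, a repressor of BMAL1-CLOCK, at 0.36 (0.0863) and 0.49 (0.0134). Bhlhe41 and Bhlhe40, repressors that bind E-boxes, were lower in gastrocnemius, at -0.47 (adjusted p = 0.0508) and -0.35 (0.0692), and at -0.19 (0.343) and -0.08 (0.510) in TA they did not pass the test. Timeless was higher in gastrocnemius at 0.25 (adjusted p = 0.0896), named after its value was seen, and stood at -0.015 in TA (0.927). The median of the list was -0.03 in gastrocnemius and 0.03 in TA.

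Of 10 genes that act on the stability of clock proteins 9 were tested (Fbxl21 was not). By limma 4 were higher and 0 lower in gastrocnemius, against 9.85% and 5.53% of all genes, and 5 were higher and 0 lower in TA, against 8.98% and 7.29%, and the medians of the list were 0.21 and 0.26. Csnk1d, a kinase that marks PER proteins for breakdown, was at 0.51 ± 0.15 in gastrocnemius (SD, n = 4; adjusted p = 0.0319) and 0.49 ± 0.15 in TA (adjusted p = 0.0198). Btrc and Fbxw11, the ubiquitin ligase subunits that take up the marked PER proteins, were at 0.53 (adjusted p = 0.0345) and 0.27 (0.0997) in gastrocnemius and at 0.44 (0.0204) and 0.36 (0.0346) in TA. Usp2, a deubiquitinase, was at 0.36 (adjusted p = 0.0472) and 0.45 (0.0359), and the kinase gene Csnk2a1 passed in TA at 0.26 (0.0789) and not in gastrocnemius at 0.21 (0.312). All 4 arrays of a muscle were above 0 for each of these calls.

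Of 12 output genes of the muscle clock, all tested, 2 were called in gastrocnemius (2 higher, 0 lower), where 15.4% of all genes were, and 2 in TA (1 higher, 1 lower), where 16.3% of all genes were, with medians of 0.03 and 0.02. Tcap, a protein of the sarcomere's Z-disc, was higher in gastrocnemius at 0.68 (adjusted p = 0.0357) and stood at 0.22 in TA (0.293). Coq10b was higher in both muscles, at 0.45 (adjusted p = 0.0424) and 0.32 (0.0631), and the cell cycle inhibitor Cdkn1a was lower in TA at -0.24 (0.0891), beside -0.53 in gastrocnemius (0.112).

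**Figure D4:**
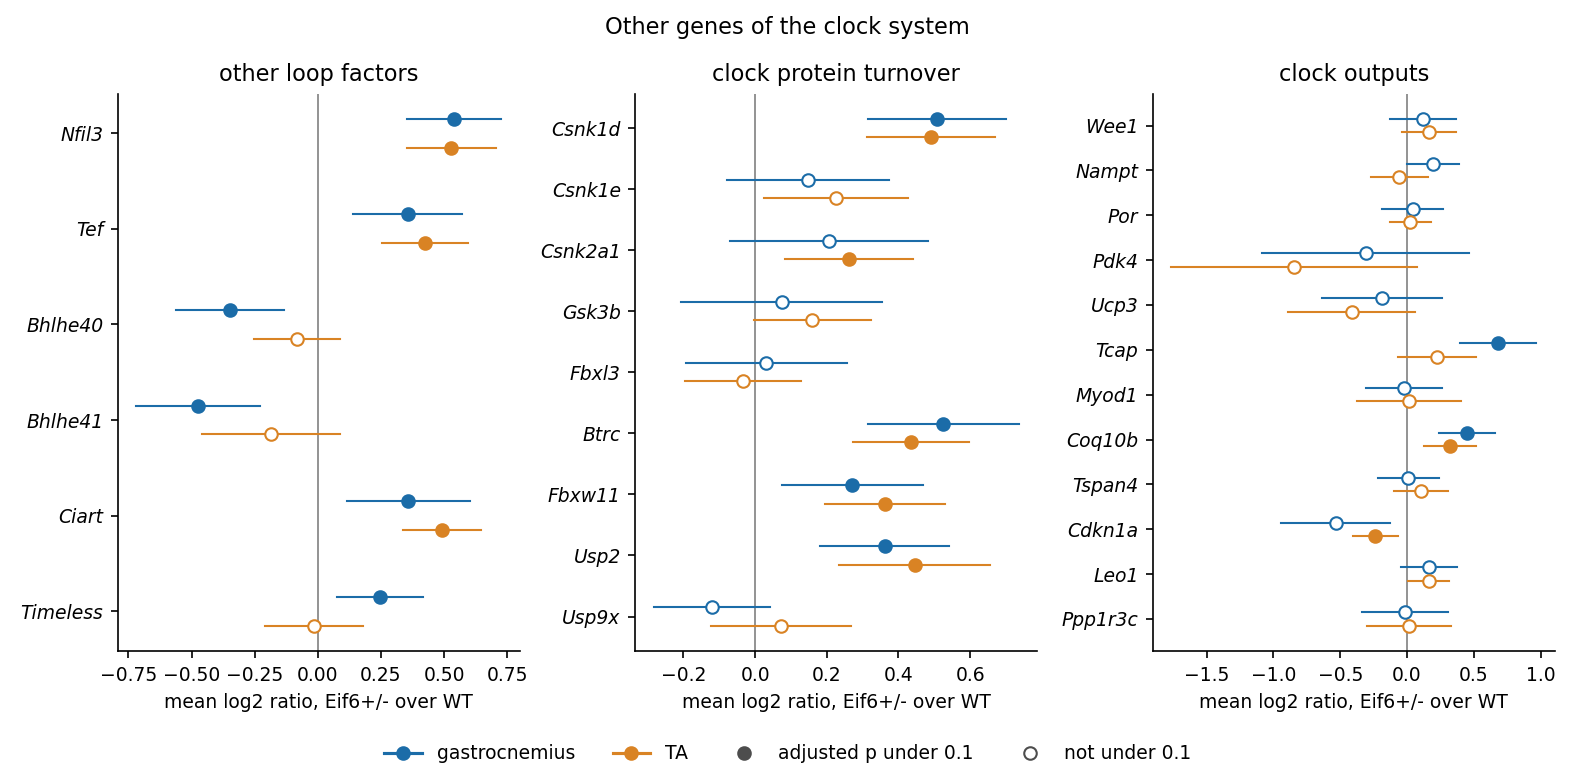
Mean log2 ratio of Eif6+/- over WT (x axis) with its 95% confidence interval from limma for 6 other loop factors named in the text and for the tested genes of clock protein turnover and clock outputs (y axis), in gastrocnemius and TA; filled markers have an adjusted p under 0.1. Of the turnover genes 4 in gastrocnemius and 5 in TA were called higher, and Nfil3 lies at 0.54 and 0.53.

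Per1 is also an early response gene and a target of the glucocorticoid receptor, so those groups were set beside it. Of 14 immediate early genes 12 were tested, with 3 higher in gastrocnemius (Nr4a1, Dusp1 and Maff) and 2 in TA (Nr4a1 and Dusp1), and 0 lower, where 9.85% of all genes were higher in gastrocnemius and 8.98% in TA. Nr4a1 and Maff are named after their values were seen, and Maff was not well above background in the WT channel of gastrocnemius arrays 1 and 2, so that it was tested there through its Eif6+/- channel. Dusp1 had ratios of 1.09, 0.18, 0.59 and 0.94 on gastrocnemius arrays 1 to 4 (mean 0.70, adjusted p = 0.0461) and 1.58, 0.23, 0.66 and 1.44 on TA arrays 1 to 4 (mean 0.97, adjusted p = 0.0355). Like Per1 it was highest in pair 1, next in pair 4, in both muscles. Fos had 0.96, -1.19, -0.36 and 1.18 in gastrocnemius (adjusted p = 0.83) and 2.64, -1.73, 0.19 and 2.34 in TA (adjusted p = 0.390). Egr1, with the lowest means of the list, had -0.03, -2.14, -0.39 and 0.11 in gastrocnemius (adjusted p = 0.299) and 1.28, -2.46, -0.59 and 0.13 in TA (adjusted p = 0.602). The summed intensity of the 14 genes, brightest for Nr4a1, was 33187, 27099, 27290 and 31717 in the Eif6+/- and 17043, 23952, 24855 and 23416 in the WT mice of gastrocnemius pairs 1 to 4. In TA the sums were 43366, 29825, 28101 and 44034 in the Eif6+/- and 20972, 24593, 32800 and 27725 in the WT mice. Nr4a3 was well above background in no channel, and the part of these genes' signals in the Per1 result was not tested.

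Of 12 glucocorticoid response genes all were tested, with 3 higher in gastrocnemius (Klf15, Sgk1 and Ddit4) and 2 higher (Klf15 and Ddit4) and 1 lower (Zbtb16) in TA, where 15.4% of all genes were called in gastrocnemius and 16.3% in TA. Sgk1, Ddit4 and Zbtb16 are named after their values were seen. Klf15 was at 0.62 in gastrocnemius (adjusted p = 0.0409) and 0.47 in TA (0.0808). Mt2 was at -0.67 (adjusted p = 0.499) and 0.62 (0.195) and Klf9 at -0.06 (0.683) and -0.29 (0.123). Fkbp5, a direct target of the receptor, was at 0.08 (adjusted p = 0.871) and 0.07 (0.803). Tsc22d3, the brightest of the list, was at 0.19 (adjusted p = 0.164) and 0.25 (0.215). The summed intensity of the list in Eif6+/- over WT was 0.987, 1.12, 0.717 and 1.19 times in gastrocnemius pairs 1 to 4 and 1.18, 1.01, 1.06 and 1.28 times in TA pairs 1 to 4, and its part in the clock results was not tested.

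Markers of other cell types were called in both muscles, as were 15.4% of all genes in gastrocnemius (5.53% lower) and 16.3% in TA (7.29% lower). All 4 tested blood and neutrophil genes of 6 were lower in Eif6+/- TA, and by limma 0 of 3 tested were called in gastrocnemius, where their means were below 0 too (adjusted p from 0.105 to 0.129), with Hba-a1 the brightest and Ngp well above background in no channel. The summed intensity of this list was 11916, 7572, 10217 and 13067 in the Eif6+/- and 20317, 18442, 15703 and 17267 in the WT mice of TA pairs 1 to 4, and 12142, 13113, 12175 and 13912 against 12579, 21131, 23243 and 15653 in gastrocnemius. Slow fibre genes were lower for 3 of 7 in TA and called for 0 of 7 in gastrocnemius. Fat cell genes, brightest for Fabp4, were lower for 2 of 5 in gastrocnemius and higher for 2 of 5 in TA (1 of them, Plin1, not well above background in the WT channel of TA array 1), with sums in Eif6+/- over WT between 0.380 and 0.924 in gastrocnemius and between 0.870 and 1.60 in TA. Nerve genes, brightest for Pmp22, were lower for 3 of 5 in TA and 0 of 5 in gastrocnemius, and endothelial genes, brightest for Kdr, for 1 of 5 and 0 of 5. Connective tissue genes were called for 0 of 6 in either muscle, and muscle fibre genes for 3 of 7 in gastrocnemius (1 higher, 2 lower) and 1 of 7 in TA (higher). The part of these markers in the clock gene ratios was not tested.

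Among the clock genes themselves the ratios varied together in part. Over the 8 arrays, which share mice if the pair numbers do, 7 of 36 pairs of clock genes had a Pearson r above 0.5 and 4 had one below -0.5, in a range from -0.69 to 0.92. Per1 and Dbp had r = 0.92 (Spearman rho 0.71), and 0.37 without TA array 1 and gastrocnemius array 1, the arrays farthest from the median of Per1, so that it rests on them. Per2 and Dbp had r = 0.89 (rho 0.98), and 0.79 without these arrays. Per1 and Per2 had r = 0.78 (rho 0.74), and -0.12 without them. Below -0.5 were Clock with Dbp (r = -0.69), Per1 (-0.59) and Nr1d1 (-0.57), and Arntl with Per3 (-0.67). Without gastrocnemius arrays 1 and 3 the values of Clock were -0.21, -0.29 and -0.56. Without gastrocnemius arrays 2 and 3 that of Arntl with Per3 was -0.58. Dbp was taken by its brightest probe alone. These values describe 8 arrays.

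The genes outside the 10 whose ratios followed those of Dbp most closely over the 8 arrays, of 12200 genes, were Sptbn1 (r = 0.964), Tmco6 (0.962), Bcl6b (0.954), Fam71f1 (0.938) and Chmp2a (0.937). Without gastrocnemius array 1 and TA array 1 their r with Dbp was 0.738, 0.654, 0.888, 0.676 and 0.858. For Arntl they were Tmem69 (r = 0.975), Zfand5 (0.962), Eif4enif1 (0.960), Gm5860 (0.954) and Celf1 (0.949), and without gastrocnemius arrays 2 and 3 their r with Arntl was 0.964, 0.896, 0.917, 0.869 and 0.949. These are the highest of many values and describe likeness on these arrays alone.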

How the data were processed

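The authors deposited, for each array, the scanner software's output, with spot intensities that are not normalized, and a table of log2 ratios of Cy5 over Cy3. Set against values computed here, the deposited table had a Pearson r of 0.999963 to 0.999996 with log2 ratios after loess without background correction, which settles its scale, centring and direction. Its columns had medians of 0.00257, 0.000831, -0.00441 and 0.00375 (gastrocnemius arrays, in order) and 0.00138, -0.000366, 0.00288 and 0.00212 (TA arrays, in order). The sample labels give Cy5 for the Eif6+/- and Cy3 for the WT RNA, whereas the methods name Cy3 labelling alone.

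Median spot intensities, used because the files hold no mean, were corrected with limma's normexp (offset 50), normalized by loess within arrays and by quantiles across the 16 channels. Control spots and outlier spots (233 to 318 on each array) were left out. Tests in a muscle took the probes that were well above background in Cy5, Cy3 or both on each of its 4 arrays (23802 probes in gastrocnemius, 23391 in TA, 22765 in both). In each channel 38.7% to 48.6% of probes stood well above background. With 4 arrays a muscle, the number of mice sets the precision. Of 55681 probes 28685 carry a RefSeq accession, and 27235 of these matched a gene of GRCm38.p6. A gene was counted by its brightest probe.

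Log2 ratios were tested against 0 in each muscle with limma 3.58.1 (R 4.3.3), and differences between muscles or pair numbers over all 8 arrays, with p values adjusted by Benjamini-Hochberg across the tested probes and called under 0.1. The tests were tested on simulated data with known differences. Besides the 10 clock genes, the text names called genes of the 3 clock lists (at most 6 each, by size, not every call being given), the genes with the highest and the lowest ratio of the immediate early and glucocorticoid lists with Fkbp5, Tsc22d3, Fos and Dusp1, and the 5 genes most like Dbp and most like Arntl. The members and lists were chosen with earlier results of these data known. Alternatives were other background corrections, normalizations, filters, signals, probes, tests and thresholds, and each array left out. All 8 arrays lay on 1 slide, with a row for each muscle. Figures were drawn with matplotlib 3.10.9 (Python 3.11.15).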

Additional observations from a re-analysis of the deposited data

Results flagged for a closer look

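Of 54 groups of 4 samples (log2 ratios and levels of the clock genes in each muscle), 3 held a sample whose gap to its nearest neighbour, as a share of the group's range, exceeded Dixon's critical value for groups of 4. Chance alone gives about 1 in 20 groups. The Dbp log2 ratio of gastrocnemius pair 1, 0.54, lay above the other 3 gastrocnemius arrays, which ran from 0.05 to 0.12. The Per1 log2 ratio of TA pair 1, 1.38, lay above the other 3 TA arrays, which ran from 0.27 to 0.40. The Per3 level of the WT mouse of TA pair 3, 6.15, lay below the other 3 WT mice, at 6.49 to 6.55, and was not well above background there. For 0 of 9 clock genes did the ratio differ between the muscles by limma at an adjusted p under 0.1, with 0 at an unadjusted p under 0.05.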

How the results depend on the processing

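The log2 ratios of Per1, Cry2 and Nr1d1 kept their sign under all 16 alternatives in both muscles, while their calls did not. Members called in gastrocnemius, 3 as reported, were 0 with Agilent's processed signals (4 at an unadjusted p under 0.05), 0 by the unpaired t-test (3), 0 at a threshold of 0.05, 4 by SAM, and 0 to 3 with an array left out. In TA, 3 as reported, they were 1 with normexp offset 0, 1 with Agilent's processed signals, 1 by the unpaired t-test, 1 at a threshold of 0.05, 4 by SAM, and 0 to 4 with an array left out; 0 was reached without pair 1 and 1 without pair 2. All genes called in gastrocnemius, 1939 as reported, were 1204 with Agilent's processed signals, 3195 by SAM, 977 by the unpaired t-test, 626 at a threshold of 0.05, 3039 in 1 fit over all 8 arrays, and 0 to 1766 with an array left out, where 0 was reached without pair 3 or pair 4 (2424 and 2649 at an unadjusted p under 0.05). In TA, 2014 as reported, they were 1215 with offset 0, 850 with Agilent's processed signals, 878 by the unpaired t-test, 837 at a threshold of 0.05, and 68 to 2020 with an array left out. At a threshold of 0.05 the unpaired t-test called 232 genes in gastrocnemius and 62 in TA after Benjamini-Hochberg adjustment, and 3049 and 2912 before it.

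For gastrocnemius minus TA, 0 members were called under every alternative, and all genes called were 1 with Agilent's processed signals, 1 without a filter on dim probes and 0 to 6 with a pair number left out. For differences between pair numbers, all genes called, 5 as reported, were 2 with Agilent's processed signals, 2 with the strict filter, 20 with array weights and 0 to 6 with a pair number left out. For Eif6+/- levels, 16 as reported, they were 36 with loess alone, 9 with offset 0, 46 with Agilent's processed signals, 44 without a filter, 6 with the strict filter and 5 to 11 with a pair number left out. For WT levels, 10 as reported, they were 17 with loess alone, 6 with offset 0, 1 with Agilent's processed signals, 0 without a filter (1078 at an unadjusted p under 0.05), 1 with the strict filter and 0 to 23 with a pair number left out. Without gastrocnemius array 1 and TA array 3, chosen after the data were seen, members called were 2 for pair numbers, 0 for Eif6+/- levels and 2 for WT levels, and all genes called were 574, 3 and 1708.

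Signs turned only in values that did not pass the test. With an array left out, Arntl in gastrocnemius ran from -0.19 to 0.048, Per3 from -0.093 to 0.017 in gastrocnemius and from -0.0081 to 0.18 in TA. With a pair number left out, or without gastrocnemius array 1 and TA array 3, the difference of gastrocnemius minus TA ran from -0.073 to 0.22 for Arntl, -0.065 to 0.073 for Clock, -0.34 to 0.0090 for Per1, -0.053 to 0.0044 for Per2, -0.27 to 0.025 for Per3, -0.25 to 0.047 for Cry2, -0.52 to 0.062 for Nr1d1 and -0.056 to 0.084 for Dbp. Clock was at 0.065 without pair number 1 and Nr1d1 at 4.42e-05 without pair number 2. The cause of these shifts was not tested.

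With the pair number as a replicate block, 0 members and 0 genes were called for gastrocnemius minus TA, with 838 genes at an unadjusted p under 0.05 against 995 without the block. Arrays of the same pair number correlated at -0.145, 0.0186, -0.356 and 0.0896 in their deviations of the log2 ratio, and for 0 of 4 did the best match in TA carry the same number. For Eif6+/- levels they correlated at 0.187, 0.0153, 0.0226 and 0.153, with the same number best for 2 of 4 (pairs 1 and 4), and for WT levels at -0.376, 0.114, -0.0710 and 0.192, with the same number best for 1 of 4 (pair 4). Signal over background limits Cry1 and Per3, and 4 arrays a muscle limit all calls.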
